A study of Mus musculus with 6 samples.

Results

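Potassium channel subunits were taken as the 97 of 24060 rows of the count table whose symbol starts with Kcn, and their RNA was compared between retinal ganglion cells (RGCs, the projection neurons of the retina) of E18 and P5 mice. Of these rows, 93 encode pore-forming or auxiliary channel subunits, and the other 4 are the noncoding transcripts Kcnq1ot1, Kcnd3os and Kcnmb4os1 and the regulator gene Kcnrg. All samples came from wildtype C57BL/6 mice without treatment, and age is the only difference that the labels give between the groups. These were embryonic day 18 (3 samples, replicates 1, 3 and 4) and postnatal day 5 (3 samples, replicates 6, 8 and 9). After papain digestion of the retinas and removal of macrophages, cells were panned on dishes carrying an antibody against Thy1 (CD90), so the cells are a Thy1-bound fraction of a whole retina and not a single RGC type. The question put to these ages is how RGCs change between a time when their axons grow readily and a time when that capacity has dropped.

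Potassium channels let potassium leave the cell, which holds the resting potential, ends the action potential and sets how fast a neuron can fire. The voltage-gated Kv pores assemble from Kcna, Kcnb, Kcnc and Kcnd subunits, silent Kv subunits modify the Kcnb pores, KCNQ channels carry the M-current, and EAG, ERG and ELK channels (Kcnh) tune excitability near threshold. Calcium- and sodium-activated channels follow activity, inward rectifiers and tandem-pore leak channels work near rest, and auxiliary subunits bind the pores and change their gating or traffic. RGCs are known to use all of these classes, and their firing matures around birth and the first postnatal days.

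The counted reads per sample ran from 81213639 to 114512853. RGC markers summed to 5330 to 6347 CPM (counts scaled to a common library size) at E18 and to 6420 to 7786 CPM at P5, so the labelled cell type was well represented at both ages. The largest part was Nefl, at 1636 to 2134 CPM at E18 and 2361 to 3462 CPM at P5. Of the 10 RGC markers, 3 were higher at P5 and 2 lower. Mean Isl1 went from 557 to 260 CPM and mean Sncg from 876 to 664 CPM. Of all genes tested, 22.5% were higher and 20.8% lower, to be set beside each marker count here. Markers of dividing cells summed to 279, 110 and 65.8 CPM in E18 replicates 1, 3 and 4 and to 52.3 to 66.9 CPM at P5, and those of progenitors to 95.5, 18.01 and 5.79 CPM against 4.84 to 6.11 CPM. E18 replicate 1 therefore stood apart in these markers. E18 replicate 3 had the highest amacrine markers, such as Tfap2b at 47.5, 119 and 1.62 CPM and Gad1 at 19.2, 35.1 and 0.486 CPM in E18 replicates 1, 3 and 4. Amacrine markers were at 637 to 950 CPM at E18 and 527 to 652 CPM at P5 (4 of 9 tested lower). Most of this sum was Pax6, at 622 to 751 CPM at E18 and 498 to 629 CPM at P5. At P5 Tfap2b was at 1.015 to 1.55 CPM and Gad1 at 1.86 to 3.91 CPM. Müller glia and astrocyte markers were at 404 to 449 and 271 to 326 CPM (3 of 8 lower). Most of that sum was Glul, at 313 to 326 and 230 to 273 CPM. Endothelial and pericyte markers were at 1.78 to 3.05 and 6.77 to 10.1 CPM (4 of 7 higher). Most of the P5 sum was Pecam1, Tek and Rgs5, while Cldn5, Cdh5, Pdgfrb, Cspg4 and Vtn stayed under 1 CPM in every sample. Bipolar markers were at 47.3 to 55.3 and 70.1 to 99.8 CPM (3 of 6 higher, 1 lower). Most of that sum was Prkca, at 40.7 to 45.55 and 64.8 to 92.2 CPM. Otx2 went the other way, at 0.62 to 11.1 and 0.173 to 0.530 CPM. Oligodendrocyte markers were at 71.7 to 74.3 and 37.5 to 61.5 CPM (2 of 5 higher, 1 lower). Their sum was mostly Mbp, at 44.2 to 47.8 and 24.9 to 46.2 CPM. Photoreceptor markers were at 4.21 to 12.4 and 4.28 to 5.57 CPM (1 of 9 higher, 3 lower). Microglial markers were at 1.93 to 2.71 and 1.49 to 1.82 CPM (1 of 6 lower). No marker was at 0 in all samples, and the part these cells had in the changes was not tested. In bulk samples, fewer cells of a type and less RNA per cell cannot be told apart.

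Potassium channel RNA was mostly higher at P5. Of the 84 Kcn rows that passed the expression filter, 52 (61.9%) were called by edgeR's quasi-likelihood test at an adjusted p under 0.05, beside 43.4% of all 16449 genes tested. Of these, 45 (53.6%) were higher at P5, beside 22.5% of all genes, and 7 (8.33%) were lower, beside 20.8%. A change of at least 2-fold was found upward for 25 rows, beside a background of 9.53%, and downward for 3 rows, beside 6.39%. The values of the ages did not overlap for 58 of the 84 rows, beside 56.1% of all genes. The median log2 fold change, P5 over E18, was 0.63 for the tested rows and -0.0047 for all tested genes. The subunit genes that were lower were Kcnf1, Kcnh4, Kcnh3, Kcnh1, Kcnk10, Kcnk2 and Kcnb2. The count of called rows was 45 without E18 replicate 1 and fell to 40 without E18 replicate 3, with 35 higher and 5 lower.

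The 13 rows outside the test had at most 25 reads in any sample. They include Kcnv2, a subunit of photoreceptor channels, and Kcnj8, a subunit of channels in vascular muscle. Among the rows that are not subunits, Kcnd3os was higher at P5 (log2 fold change 1.06 ± 0.29 SE, adjusted p = 0.0187), a call lost without E18 replicate 3 or 4 or P5 replicate 9 (log2 0.93 to 1.24 over all other fits), while Kcnq1ot1 (-0.20 ± 0.14) and Kcnrg (-0.39 ± 0.23) were not called. Kcnd3os shares 165 exon bases with Kcnd3 on the opposite strand, so reads of these genes cannot be separated without a strand setting.

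**Figure D1:**
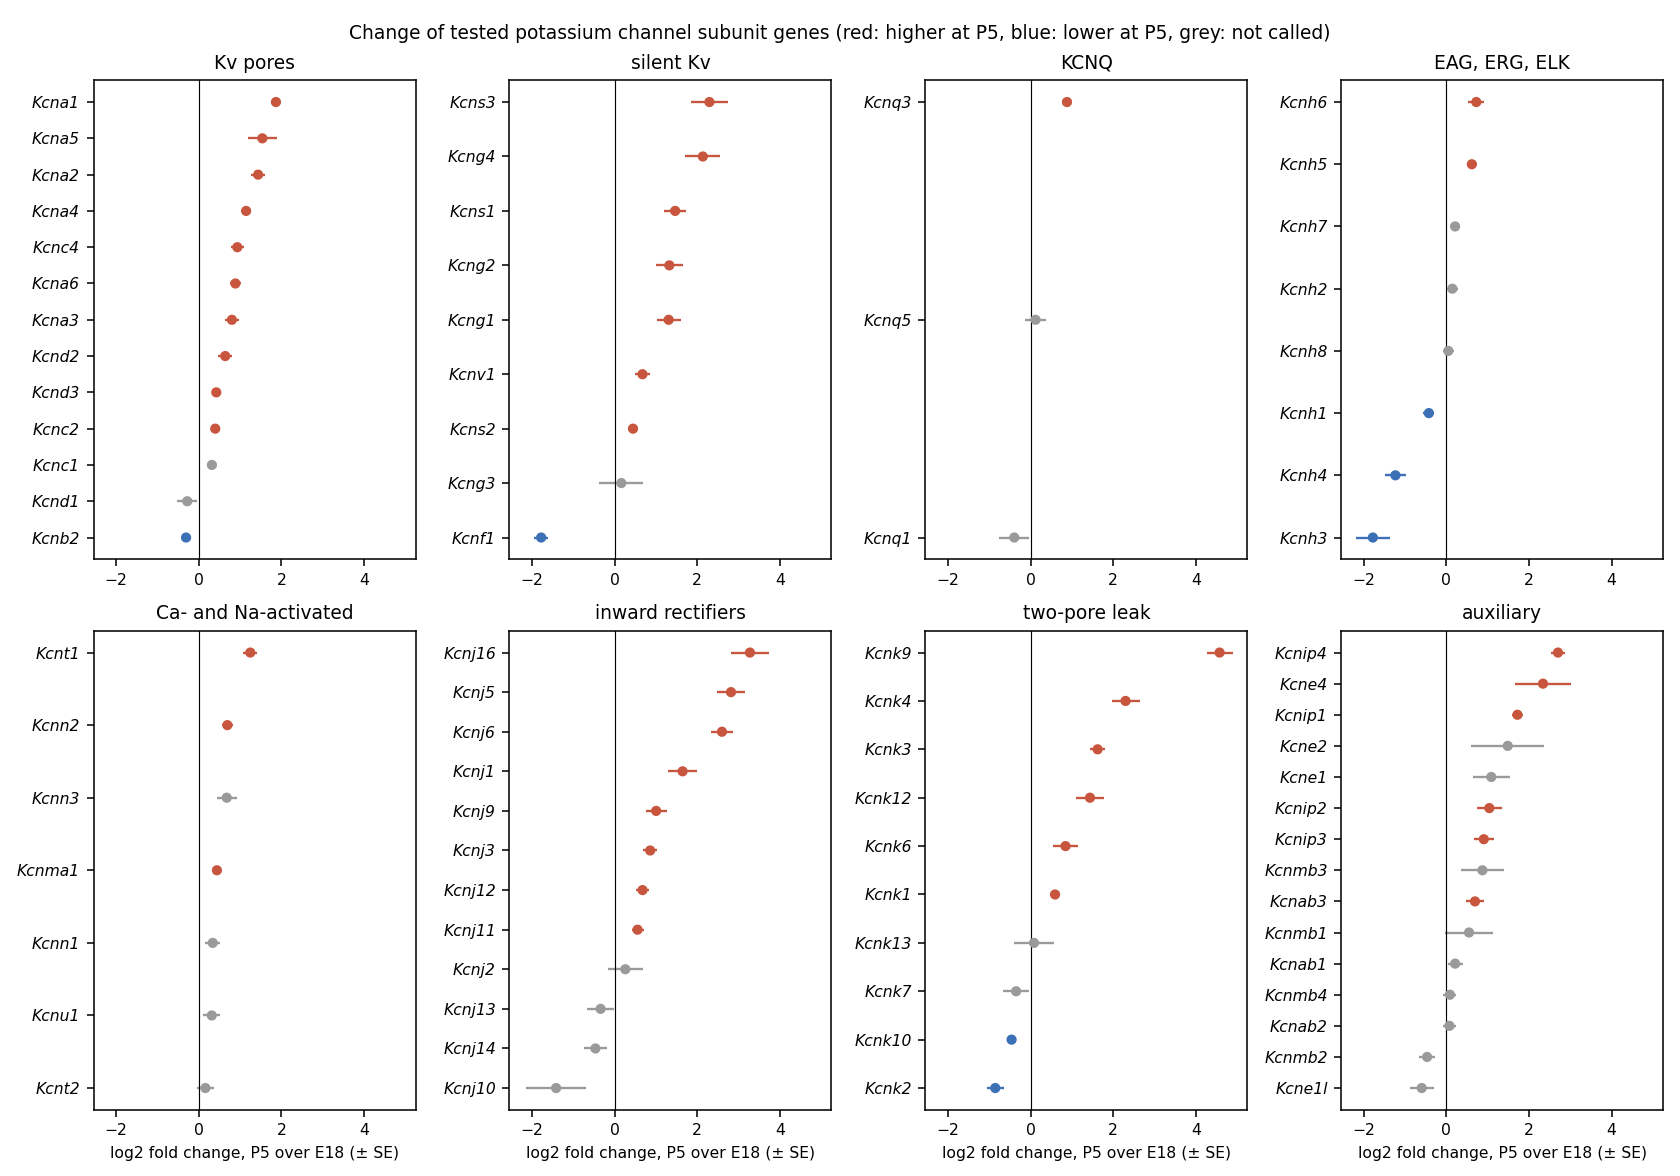
Log2 fold change (x axis, P5 over E18, with the standard error of the fit) of 77 tested subunit genes, 1 panel for each of 8 role groups. Most Kv pores, silent subunits and inward rectifiers lie right of 0, Kcnk9 lies farthest right at 4.58, and blue points (lower at P5) appear among the Kcnh and Kcnk genes and at Kcnb2 and Kcnf1.

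Sequence upstream of the start site is shown for 3 members that stand at the ends of the range of change and have a single RefSeq promoter clear of, or within 6 bases of, the annotated gene. Each run is the 120 bases before the RefSeq start (GRCm38.p6), written 5′ to 3′ on the gene's strand, with GC boxes in capitals. They lie at chr9:32344345-32344464 (Kcnj5), chr19:6934516-6934635 (Kcnk4) and chr12:17176889-17177008 (Kcnf1), all on the minus strand.
Kcnj5, higher at P5: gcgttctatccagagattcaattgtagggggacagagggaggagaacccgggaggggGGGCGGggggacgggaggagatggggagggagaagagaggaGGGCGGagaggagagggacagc
Kcnk4, higher at P5: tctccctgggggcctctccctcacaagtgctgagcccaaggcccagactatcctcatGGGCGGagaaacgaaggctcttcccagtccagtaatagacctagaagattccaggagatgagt
Kcnf1, lower at P5: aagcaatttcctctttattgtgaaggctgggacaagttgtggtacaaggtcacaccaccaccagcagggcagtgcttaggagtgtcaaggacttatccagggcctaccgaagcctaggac
A GC box (GGGCGG, either strand) stood in the 250 bases before the start in 45.2% of the 93 promoters found for 68 subunit genes, beside 32.7% of all 32851 promoters. It was there in 44.2% of the 43 promoters of genes higher at P5 and in 44.4% of the 9 promoters of genes lower at P5, so the shares of both directions were near each other. An E-box (CACGTG) stood in 6.45% of the channel promoters and 6.02% of all, a TATA box (TATAAA) in 3.23% and 12.4%, and a CRE (TGACGTCA) in 0 and 1.55%. No searched motif contains another, and a match describes the letters alone.

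Kv pores were the group with the most calls upward by count. Of 15 tested genes, 11 (73.3%) were higher at P5, beside 22.5% of all genes, and 1, Kcnb2, was lower. By share, the silent subunits had more, with 77.8% higher. All 6 tested Kcna genes were higher. Kcna1, a low-threshold pore of axons (chromosome 6, 126640397 to 126646384, minus strand, mm10), was at 8.70, 8.02 and 8.81 CPM at E18 and at 27.4, 30.2 and 35.7 CPM at P5. The ages were far apart, with a change of 3.65-fold (log2 1.87 ± 0.13 SE, adjusted p = 9.07e-05). Kcna2, its usual partner in axonal channels, was at 49.1, 51.9 and 45.6 CPM at E18 and at 104, 122 and 171 CPM at P5 (2.71-fold, adjusted p = 0.000574). Kcna4, an inactivating pore, was at 14.3 to 16.03 CPM at E18 and 29.4 to 37.9 CPM at P5 (2.21-fold, adjusted p = 0.000363), and the less abundant Kcna5 was at 0.563 to 1.51 and 2.72 to 3.93 CPM (2.91-fold, adjusted p = 0.00930). Kcna3 and Kcna6 were higher by 1.74-fold and 1.85-fold. Kcna6 remained the Kcna gene with the highest level per length at both ages, but its share of the summed Kcna level went from 49.1% to 40.9%, while that of Kcna1 went from 8.97% to 14.7%, without overlap between the ages. Of the exon bases of Kcna6, 2355 of 5836 are shared with an antisense gene, which leaves its level uncertain.

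Kcnb2 encodes a delayed rectifier of the soma. Kcnb2 was at 34.7, 37.4 and 34.1 CPM at E18 and at 30.3, 27.7 and 27.7 CPM at P5 (log2 -0.31 ± 0.10, adjusted p = 0.0305), a call that was lost when any 1 of the 3 E18 replicates or P5 replicate 9 was left out (log2 -0.34 to -0.27 over all other fits).

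Kcnc genes encode fast pores that shorten the action potential. Kcnc2 was at 107, 110 and 112 CPM at E18 and at 147, 149 and 139 CPM at P5, a change of 1.32-fold (adjusted p = 0.00495). Per length of RefSeq-linked exons it was the highest Kv pore at both ages. That place rests on 2944 exon bases, beside 7138 over all GENCODE transcripts, whereas Kcnd2 has 5152 either way. Kcnc4 was higher by 1.91-fold (adjusted p = 0.00215), whereas Kcnc1 (log2 0.32 ± 0.12, adjusted p = 0.0598) missed the threshold but was called in 6 of 13 other fits, DESeq2 and edgeR's likelihood ratio and exact tests among them. Of the Kcnd genes, whose pores carry the fast transient current, Kcnd2 (1.56-fold, adjusted p = 0.0157) and Kcnd3 (1.34-fold, adjusted p = 0.00409) were higher, and the sparse Kcnd1 was not called (log2 -0.28 ± 0.24). The call of Kcnd2 was lost without E18 replicate 1 or 3 or P5 replicate 9, with log2 fold changes of 0.54 to 0.85 over all other fits.

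Silent Kv subunits do not form channels alone but change the gating of Kcnb pores. Of 9 tested, 7 (77.8%) were higher at P5, beside 22.5% of all genes, and 1 (11.1%) was lower, beside 20.8%. Kcnf1 (chromosome 12, 17172100 to 17176888, minus strand), whose upstream sequence is shown above, was at 32.4, 32.7 and 35.2 CPM at E18 and at 11.3, 10.6 and 7.28 CPM at P5. This was the largest fall among subunit genes above 1 CPM, 3.43-fold (log2 -1.78 ± 0.17, adjusted p = 0.000243). Kcns2, the silent subunit with the highest level, was at 57.1 to 66.1 CPM at E18 and 76.9 to 87.1 CPM at P5 (1.36-fold, adjusted p = 0.00723). Kcns1 was at 0.796, 0.972 and 1.13 CPM at E18 and at 1.92, 3.00 and 3.08 CPM at P5 (2.76-fold, adjusted p = 0.00315). Kcns3, Kcng4, Kcng1 and Kcng2, singled out after their values were seen, were also higher at least 2-fold but stayed under 2 CPM in every sample, and Kcng3 was not called (log2 0.16 ± 0.53). The call of Kcng2 was lost without E18 replicate 3 (log2 1.10 to 1.57 over all other fits). Kcnv1 was higher by 1.59-fold (adjusted p = 0.0206), which was lost without E18 replicate 3 or 4 or P5 replicate 6 (log2 0.48 to 0.82).

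Among the KCNQ genes, 1 of 5 (20.0%) was called, beside 43.4% of all genes. Kcnq3, a subunit of the M-channel, was at 10.8, 10.4 and 11.3 CPM at E18 and at 22.7, 18.02 and 19.2 CPM at P5 (1.84-fold, adjusted p = 0.00107). Kcnq1 (log2 -0.39 ± 0.37) and Kcnq5 (0.12 ± 0.25) were not called.

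The Kcnh genes were the only role group with more tested members lower (3) than higher (2). Kcnh4, an ELK channel (chromosome 11, 100740376 to 100759942, minus strand), was at 23.5, 22.7 and 29.8 CPM at E18 and at 11.6, 14.1 and 6.60 CPM at P5, a fall of 2.35-fold (log2 -1.23 ± 0.25, adjusted p = 0.00526). Kcnh3, another ELK channel, was lower as well (log2 -1.78 ± 0.41, adjusted p = 0.00893) but was under 0.5 CPM in every sample. The EAG channel genes diverged. Kcnh5 was at 49.1, 48.4 and 58.7 CPM at E18 and at 77.5, 72.1 and 89.8 CPM at P5 (1.53-fold, adjusted p = 0.00409), and Kcnh1 was at 29.4, 33.2 and 38.5 CPM at E18 and at 25.3, 22.5 and 27.7 CPM at P5 (log2 -0.42 ± 0.13, adjusted p = 0.0290). The call of Kcnh1 was lost without E18 replicate 3 or 4 or without P5 replicate 6 or 8, with log2 fold changes of -0.52 to -0.32 over all other fits. Of the ERG genes, Kcnh6 was higher (1.65-fold, adjusted p = 0.0167), and Kcnh2 (log2 0.14 ± 0.14) and Kcnh7 (0.21 ± 0.09) were not called. Without E18 replicate 1 or 3 or P5 replicate 6 or 9 the call of Kcnh6 was lost (log2 0.61 to 0.88). Kcnh8, the third ELK gene, had a log2 fold change of 0.05 ± 0.14. Per kilobase, Kcnh5 exceeded Kcnh4 by 1.91 ± 0.0769-fold at E18 and by 7.82 ± 4.17-fold at P5.

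Of the calcium- and sodium-activated channels, 3 of 7 tested (42.9%) were higher and none was lower, beside 22.5% and 20.8% of all genes. Kcnt1, a sodium-activated pore that follows bursts of firing, was at 19.0, 15.0 and 21.7 CPM at E18 and at 42.9, 37.5 and 51.6 CPM at P5 (2.37-fold, log2 1.25 ± 0.17, adjusted p = 0.000885). Kcnt2, its relative, was at 4.37 to 5.88 and 4.94 to 7.42 CPM and was not called (adjusted p = 0.561). Kcnma1, the large-conductance calcium-activated (BK) pore, was higher by 1.36-fold (adjusted p = 0.00541), and its 4 Kcnmb auxiliary genes were not called by edgeR's quasi-likelihood test. DESeq2 called Kcnmb2, at 4.23, 4.40 and 4.47 CPM at E18 and at 3.78, 3.10 and 2.61 CPM at P5, lower. Among the small-conductance (SK) genes, Kcnn2 was higher by 1.62-fold (adjusted p = 0.00526). Kcnn1, the SK gene with the highest level, was at 24.9, 26.1 and 30.3 CPM at E18 and at 43.0, 25.3 and 34.6 CPM at P5, which overlap (log2 0.34 ± 0.18, adjusted p = 0.162). Without P5 replicate 8 this gene was called (log2 0.54, adjusted p = 0.00958).

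Inward rectifiers were higher in 8 of 12 tested genes (66.7%) and lower in none, beside 22.5% and 20.8% of all genes. All 4 genes of G protein-gated channels, which open when Gi/o-coupled receptors are active, were higher. Kcnj5 (chromosome 9, 32314707 to 32344350, minus strand), with GC boxes upstream as shown above, was at 2.70, 2.25 and 2.97 CPM at E18 and at 14.6, 11.4 and 29.7 CPM at P5. The change was 7.05-fold (log2 2.82 ± 0.34, adjusted p = 0.000625), and P5 replicate 9 stood above the other P5 samples. Kcnj6 was at 0.543, 0.428 and 0.464 CPM at E18 and at 2.78, 2.23 and 3.69 CPM at P5 (6.06-fold, adjusted p = 0.000354). Kcnj9 was at 7.595, 5.97 and 8.18 CPM at E18 and at 14.5, 9.49 and 19.6 CPM at P5 (2.01-fold, adjusted p = 0.0127), a call lost without E18 replicate 3 (adjusted p = 0.0529). Kcnj3, the common partner in neuronal channels, was higher by 1.82-fold (adjusted p = 0.00508), though 1621 of its 5215 exon bases are shared with an antisense gene. The ratio of Kcnj6 to Kcnj3 per kilobase was 0.0832 ± 0.0175 at E18 and 0.272 ± 0.0257 at P5.

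Kcnj11, the pore of ATP-sensitive channels and the inward rectifier with the highest level, was at 10.8, 11.0 and 12.9 CPM at E18 and at 15.3, 15.5 and 20.1 CPM at P5 (1.47-fold, adjusted p = 0.0157). The call was lost without E18 replicate 1 or 3 (adjusted p = 0.0652 and 0.0668). Abcc8, the receptor subunit of that channel, was not called (log2 -0.41 ± 0.27, adjusted p = 0.237). Kcnj12, a strong inward rectifier, was higher by 1.60-fold (adjusted p = 0.0106). Kcnj16 and Kcnj1, singled out after their values were seen, were called higher but stayed under 1.2 CPM in every sample. Kcnj10, the inward rectifier typical of Müller glia, had 59, 17 and 11 reads at E18 and 5, 13 and 16 at P5. Its highest value was in E18 replicate 1, the sample with the highest progenitor markers, and it was not called (adjusted p = 0.148).

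Tandem-pore leak channels had 6 of 10 tested genes higher and 2 lower. Kcnk9, an acid-sensitive leak channel (chromosome 15, 72501089 to 72546340, minus strand), was at 0.362, 0.285 and 0.475 CPM at E18 and at 7.50, 6.94 and 12.3 CPM at P5. This was the largest change of any Kcn row, 23.9-fold (log2 4.58 ± 0.32, adjusted p = 9.07e-05). Kcnk3, the closest relative of Kcnk9, was at 3.87, 3.76 and 5.599 CPM at E18 and at 12.2, 14.04 and 14.5 CPM at P5 (3.08-fold, adjusted p = 0.000484). Kcnk4, a leak channel gated by membrane stretch and lipids, was at 1.25, 0.847 and 1.71 CPM at E18 and at 6.07, 4.13 and 8.56 CPM at P5 (4.93-fold, adjusted p = 0.00133). The other stretch-sensitive genes were lower. Kcnk2 was at 13.1, 17.0 and 9.35 CPM at E18 and at 7.95, 6.99 and 6.92 CPM at P5 (log2 -0.85 ± 0.21, adjusted p = 0.0117). Its highest value was in E18 replicate 3, the sample with the highest amacrine markers, and a part of those cells was not tested. Kcnk2 was called in all 13 other fits (log2 -1.05 to -0.63). Kcnk10 was at 57.3, 64.9 and 70.7 CPM at E18 and at 51.2, 46.5 and 42.7 CPM at P5 (log2 -0.46 ± 0.11, adjusted p = 0.0116). Kcnk1, the leak gene with the highest level per length over all samples, was higher by 1.51-fold (adjusted p = 0.00585). Kcnk12, a silent member of the family, was higher by 2.71-fold but stayed under 2 CPM, and the sparse Kcnk6 was called here (adjusted p = 0.0439) but in only 4 of 12 other fits. The share of Kcnk10 in the summed Kcnk level per kilobase went from 39.2% to 22.0%, without overlap, and despite its change Kcnk9 stayed at 0.724 CPM per kb at P5, beside 5.65 for Kcnk10.

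Auxiliary subunits were higher in 6 of 15 tested genes (40.0%) and lower in none, beside 22.5% and 20.8% of all genes. The calls were concentrated by subfamily. All 4 Kcnip genes, whose calcium-binding products bind the Kcnd pores, were higher. Kcnip4 (chromosome 5, 48389502 to 49524907, minus strand) was at 12.2, 11.5 and 13.3 CPM at E18 and at 77.1, 62.9 and 100.2 CPM at P5, a change of 6.503-fold (log2 2.70 ± 0.17, adjusted p = 6.76e-05). Kcnip1 (chromosome 11, 33629339 to 33993152, minus strand) was at 36.0, 37.1 and 46.4 CPM at E18 and at 128, 116 and 150 CPM at P5 (3.29-fold, log2 1.72 ± 0.14, adjusted p = 0.000141). For both genes every P5 sample was above every E18 sample by a wide margin. Kcnip2 was at 2.57, 2.06 and 2.64 CPM at E18 and at 4.83, 2.96 and 7.15 CPM at P5 (2.06-fold, adjusted p = 0.0250), and in 4 of the 6 fits without a sample it missed the threshold (adjusted p = 0.0525 to 0.0909). Kcnip3 was higher by 1.87-fold (adjusted p = 0.0179). Kcnab2, the main cytoplasmic beta subunit of Kcna channels, was at 150, 146 and 194 CPM at E18 and at 167, 147 and 202 CPM at P5, which overlap (log2 0.07 ± 0.15, adjusted p = 0.711). Kcnab3 was higher (1.62-fold, adjusted p = 0.0299), and Kcnab1 was not called. Of the Kcne genes, the sparse Kcne4 alone was called, with at most 0.468 CPM in a sample. Several of these calls did not hold in every fit with 1 sample left out. That of Kcnip3 was lost without E18 replicate 1 or P5 replicate 6 or 9 (log2 0.68 to 1.16 over all other fits). That of Kcnab3 was lost when any 1 sample other than P5 replicate 8 was left out (0.46 to 0.86). That of Kcne4 was lost without E18 replicate 1 or 3 or P5 replicate 9 (1.67 to 2.71).

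**Figure D2:**
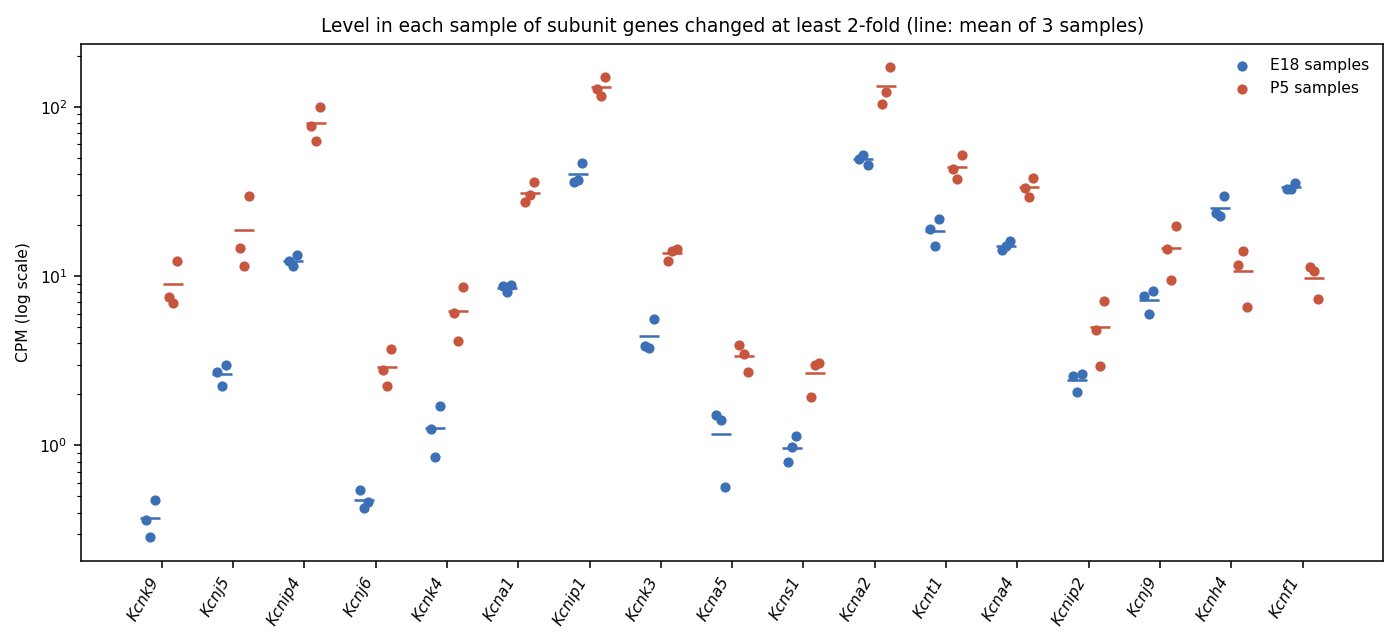
CPM (y axis, log scale) in each of the 3 E18 and 3 P5 samples for 17 of the 18 subunit genes with an adjusted p under 0.05, a change of at least 2-fold, no overlap between ages and a mean of at least 1 CPM, ordered by fold change, with a line at each mean. The P5 points lie above the E18 points for 15 genes and below them for Kcnh4 and Kcnf1.

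The level of the whole family was compared between genes as CPM per kilobase of exon. Summed over the 93 subunit genes it was 310, 309 and 352 at E18 and 474, 443 and 530 at P5, a ratio of means of 1.49. Kv pores summed to 113 ± 7.66 at E18 and 178 ± 10.7 at P5 (SD, n = 3), and auxiliary subunits to 78.9 ± 9.20 and 142 ± 20.3, so these groups held most of the added level. Inward rectifiers went from 11.2 ± 0.520 to 21.1 ± 5.49, the calcium- and sodium-activated group from 19.8 ± 1.54 to 29.6 ± 4.40 and tandem-pore channels from 19.8 ± 0.294 to 25.9 ± 2.07, all without overlap. The sums of the Kcnh group (41.2 ± 3.91 and 45.1 ± 3.25), the KCNQ group (19.8 ± 0.924 and 19.2 ± 0.678) and the silent subunits (20.1 ± 1.08 and 21.4 ± 0.780) overlapped between the ages. The sum of the silent group held opposite changes, since Kcns2 went from 10.8 to 14.7 CPM per kb and Kcnf1 from 6.99 to 2.04. Without Kcns2, its most abundant member, the group's ratio of P5 to E18 was 0.720.

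**Figure D3:**
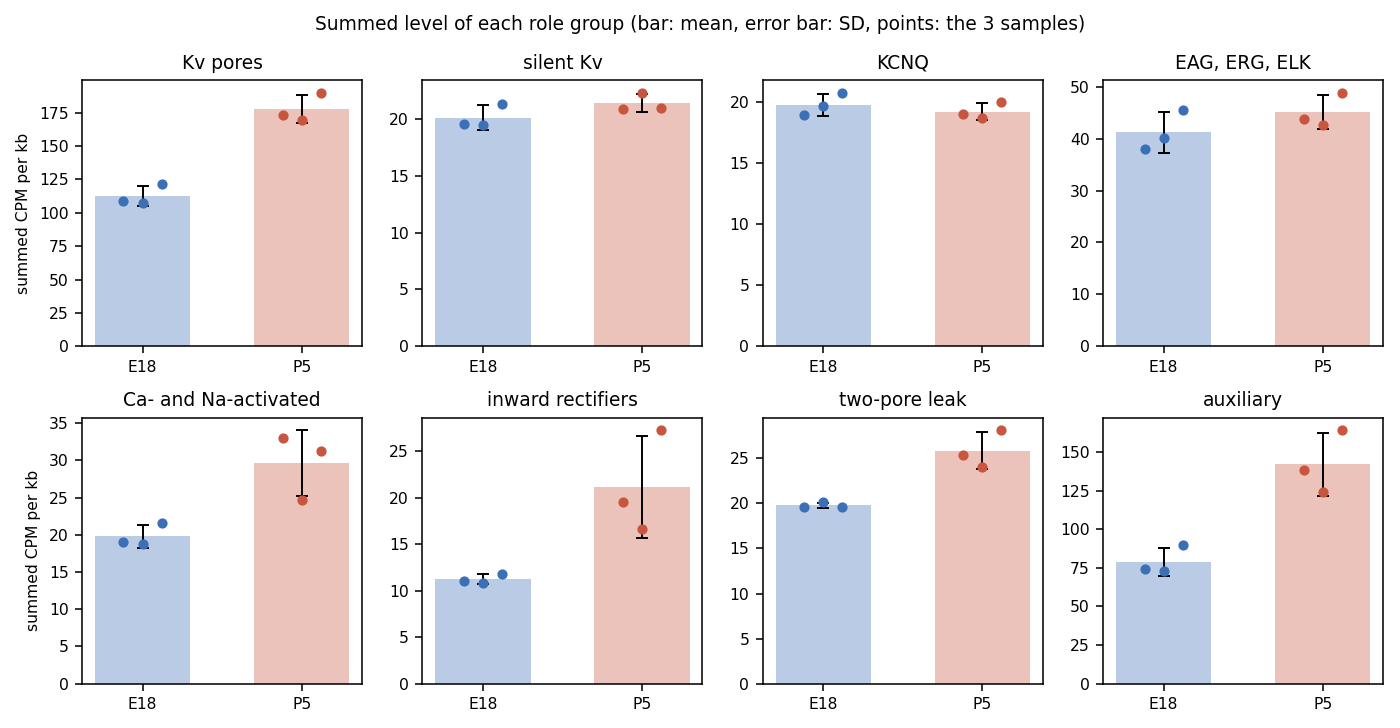
Summed CPM per kb (y axis, a separate scale in each panel) of the 8 role groups at E18 and P5, with the bar at the mean, the error bar at 1 SD and points for the 3 samples. Auxiliary subunits go from 78.9 to 142 and Kv pores from 113 to 178, while KCNQ, Kcnh and silent subunits overlap between the ages.

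By share of the summed level, auxiliary subunits went from 24.4% ± 0.994 to 29.4% ± 1.47 and Kv pores from 34.8% ± 0.317 to 36.9% ± 1.29. The Kcnh group went from 12.7% ± 0.399 to 9.37% ± 0.236, KCNQ from 6.12% ± 0.228 to 4.00% ± 0.225 and silent subunits from 6.23% ± 0.130 to 4.47% ± 0.539. None of these 5 shares overlapped between the ages. Their size depended on how levels were summed, since the difference in share ran from -0.319 to -3.22 percentage points for KCNQ, from 0.704 to 5.02 for Kv pores, from 3.01 to 10.7 for auxiliary and from -3.15 to -6.92 for Kcnh genes when the highest member was left out or length was set aside, and that of silent subunits reached -2.79 without Kcns2. Among subfamilies, the Kcnip sum had the largest ratio of P5 to E18, 3.73, followed by Kcna at 2.23, Kcng at 1.99, Kcnt at 1.96 and Kcnj at 1.88. The Kcng sum was small, at 0.521 CPM per kb at E18 and 1.04 at P5. The single Kcnf gene had the smallest, 0.292, and Kcnab (1.08), Kcnmb (1.02), Kcnh (1.09) and Kcnq (0.971) were near 1 with overlapping samples.

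**Figure D4:**
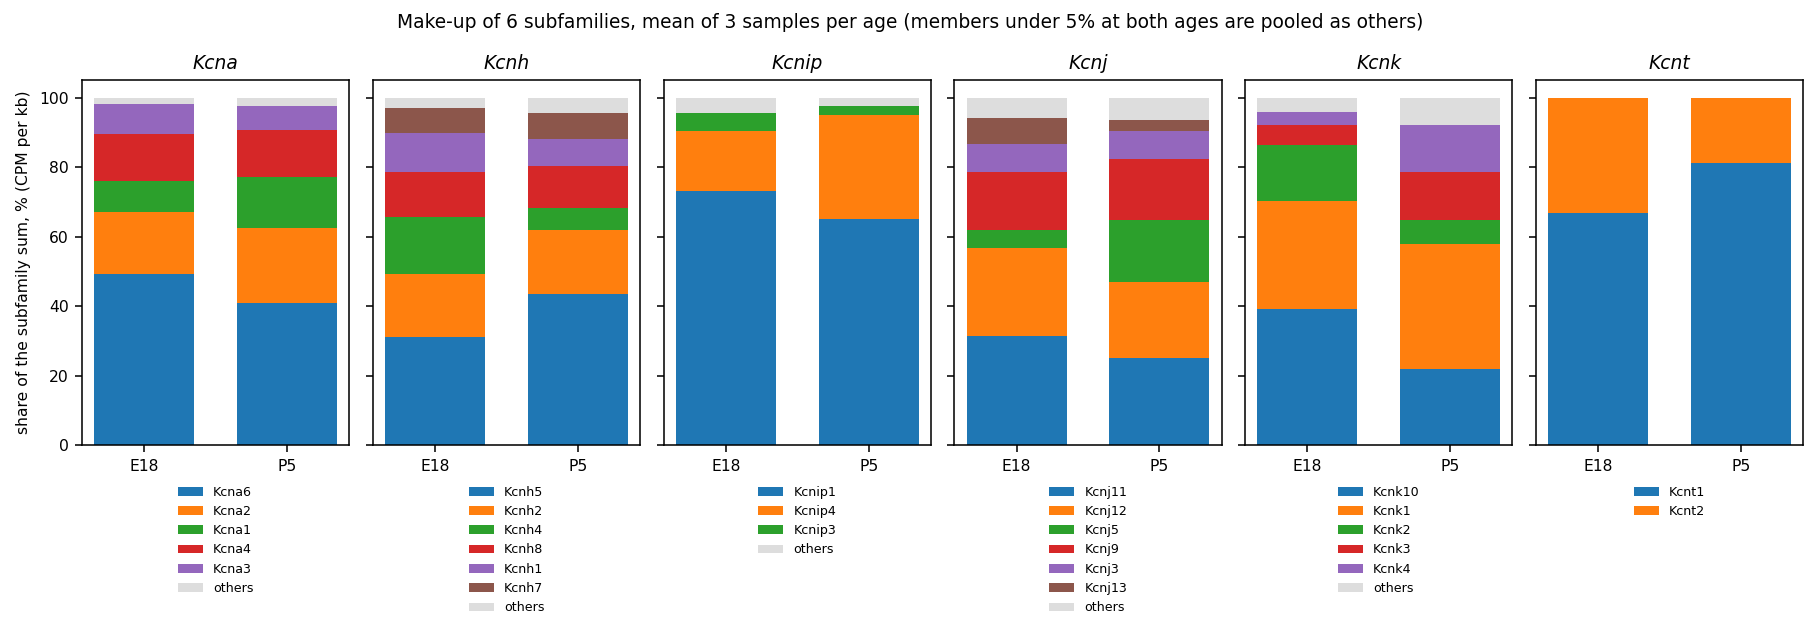
Share in percent (y axis, from CPM per kb, mean of 3 samples) that each member took of its subfamily sum at E18 and P5, for 6 subfamilies. The share of Kcnip4 goes from 17.5% to 30.1% and that of Kcnj5 from 5.004% to 17.98%, while Kcnk10 goes from 39.2% to 22.0%.

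The members with the highest level changed order. At E18 they were Kcnab2 (40.0 CPM per kb), Kcnc2 (37.3), Kcnd2 (19.1), Kcnd3 (16.9) and Kcnip1 (16.1), and at P5 Kcnip1 (52.9), Kcnc2 (49.3), Kcnab2 (42.1), Kcnd2 (29.8) and Kcnip4 (24.8). Kcnip4 was ranked 22 at E18 and 5 at P5. Kcnj5 went from rank 55 to 28, and Kcnf1 from 13 to 41. The 7 highest genes made up 50.4% of the summed level at P5, and the 8 highest 52.5% at E18. The ranges of Kcnip1 and Kcnc2 overlapped at P5 and those of Kcnab2 and Kcnc2 overlapped at E18. Their order at each age was therefore not larger than the spread between samples. The ranking also rests on the exon length used. Over all GENCODE exons, Kcnip1 has 6200 bases beside the 2479 used and Kcnc2 7138 beside 2944. Kcnab2 has 5578 beside 4087, and Kcnd2 has 5152 either way. Those lengths would lower Kcnip1 and Kcnc2 relative to Kcnd2, and the order under them was not tested.

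**Figure D5:**
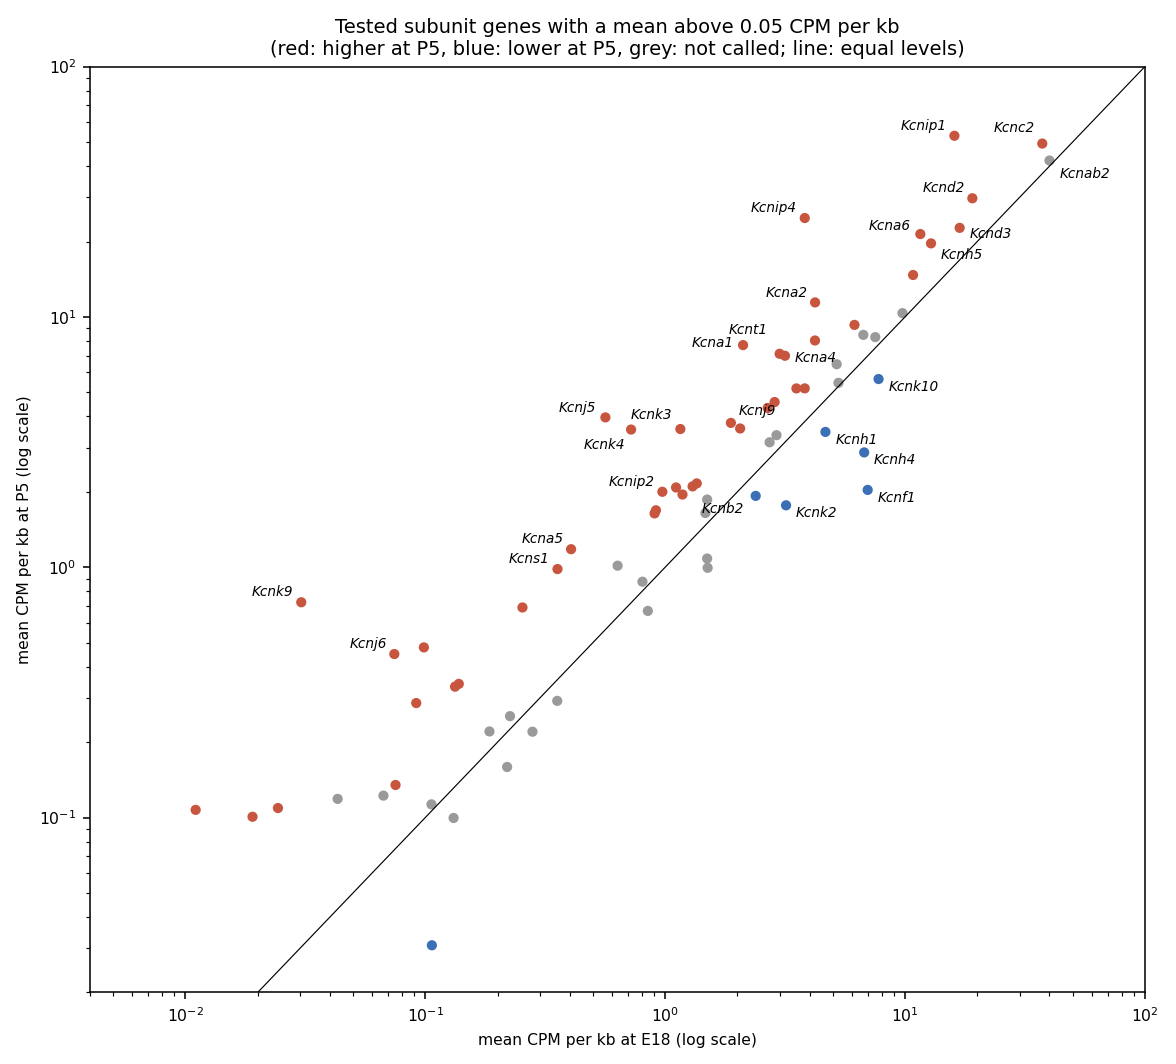
Mean CPM per kb at E18 (x axis, log scale) against P5 (y axis, log scale) for tested subunit genes with a mean above 0.05 CPM per kb, with a line at equal levels. Kcnip1, Kcnc2 and Kcnab2 lie at the top right, Kcnk9, Kcnj5 and Kcnip4 lie far above the line, and Kcnf1 (6.99 to 2.04) and Kcnh4 (6.76 to 2.87) lie below it.

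Proteins that bind or place potassium channels under other symbols were also examined. Of 35 listed genes, 32 were tested, 17 were higher at P5 and 2 were lower, beside 22.5% and 20.8% of all genes, with a median log2 fold change of 0.44. Lgi1, a secreted protein of the Kcna channel complex at axons and synapses, was at 7.31, 6.502 and 9.60 CPM at E18 and at 30.9, 24.3 and 40.2 CPM at P5 (log2 2.03 ± 0.21, adjusted p = 0.000355). Its relative Lgi2 (log2 1.28 ± 0.13, adjusted p = 0.000271) and the scaffold Dlg2, which clusters Kcna channels (1.42 ± 0.15, adjusted p = 0.000362), were higher too. The Lgi receptors Adam22 and Adam23 were higher as well. Not called among the genes listed for Kcna clustering were Cntnap2 (log2 0.16 ± 0.08), Cntn2 (-0.18 ± 0.11), Dlg3 (0.25 ± 0.09), Dlg4 (0.03 ± 0.10) and Adam11 (-0.32 ± 0.16). The hyperpolarization-activated channels, which share the fold of Kv pores, include Hcn2 (log2 1.25 ± 0.15, adjusted p = 0.000621), which was higher, and Hcn3 (0.01 ± 0.12) and Hcn4 (0.13 ± 0.18), which were not called. Of the Kcnd partners, Dpp10 was higher (log2 0.82 ± 0.10, adjusted p = 0.000549) and Dpp6 missed the threshold (0.24 ± 0.09, adjusted p = 0.0602). Calm2 and Calm3, which encode calmodulin bound by KCNQ and SK channels, were each higher. The genes that were lower were Ank3 (log2 -0.30 ± 0.08, adjusted p = 0.0204) and Nfasc (-0.48 ± 0.10, adjusted p = 0.00507), which encode the anchor and an adhesion protein of the axon initial segment, where KCNQ and Kcna channels are held. Sptbn4, the spectrin of the same anchor complex, was higher (0.37 ± 0.13, adjusted p = 0.0457). Of the Kcnb partners, Vapa (log2 0.24 ± 0.08, adjusted p = 0.0471) and Vapb (0.59 ± 0.11, adjusted p = 0.00368) were higher and Amigo1 was not called (0.02 ± 0.11).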

How the data were processed

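RNA of immunopanned RGCs was sequenced from 3 E18 and 3 P5 samples as 100-base paired-end reads after Ribo-Zero depletion of ribosomal RNA, per the methods, although the labels name polyA RNA. The authors used STAR for alignment to mm10 and HT-seq for RefSeq gene counts, which they deposited as raw counts, and the submitters' processing notes also name CASAVA 1.8.2. Normalized counts, a signal that the authors scaled for library size, were deposited too and not used. The log2 fold changes and the p-values with false discovery rates that the authors deposited come from their edgeR comparison and were not used, nor was the deposited score, a rank. Whether counting used strand is not given in the sources used here, which leaves overlapping antisense genes and near-identical copies uncertain. In the table the numbers 2 and 5 also stand in the column name for E18 replicate 1, without a word on pooling. No batch is given, and nothing says that samples came from separate animals, so p-values measure the spread between these samples, which may be technical.

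Counts were scaled by TMM and fitted in edgeR 4.0.16 (quasi-likelihood test, R 4.3.3). Its expression filter kept 16449 of 24060 genes, and Benjamini-Hochberg adjustment ran over all of them and a threshold of 0.05. Libraries held 81213639 to 114512853 counted reads, CPM use these sizes after TMM scaling, and levels between genes use CPM per kilobase of the exons of RefSeq-linked GENCODE transcripts, found for all 97 rows and for 23712 of 24060 genes. Sums and shares over members got no test. SE belong to the fitted log2 fold change. Replicates of an age differed by far more than counting error (chi-square of 30.5 to 141 per degree of freedom), so none was counted as a duplicate. The scripts were tested on simulated data.

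The members, role groups, partner list and marker lists were chosen with earlier results of these data known. Genes named were those with an adjusted p under 0.05, a change of at least 2-fold, no overlap and a mean of at least 1 CPM (18 genes), the gene with the highest level per length in each role group, and partners changed at least 2-fold with a mean of at least 10 CPM (5 genes). Any other gene was named after its value was seen. The 13 other fits used DESeq2 1.42.0, other edgeR tests, normalizations and filters, and every set of samples with 1 left out. Promoter sequences are from RefSeq. A few members and partners are counted but not reported singly here.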

Additional observations from a re-analysis of the deposited data

How the results depend on the processing

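No paired analysis was possible because the replicate numbers of E18 (1, 3 and 4) and P5 (6, 8 and 9) are not shared. Over the 13 other fits, 38 of the 52 called Kcn rows were called in every one that tested them, 14 lost the call in at least 1, and none changed sign. Leaving out single samples gave 40 to 58 called Kcn rows (35 to 51 higher, 5 to 7 lower), 16 to 20 partners and 4575 to 8796 of all genes, the lowest without E18 replicate 3; DESeq2 called 55 rows. Kcnab2, not called in any fit, turned to a log2 fold change of -0.0037 without E18 replicate 3 and -0.055 without P5 replicate 9, with a range of -0.055 to 0.22 over the fits without 1 sample.

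Sums without a test moved more. Leaving out each group's highest member gave ratios of P5 to E18 of 0.896 for Kcnh, 1.41 for KCNQ, 1.71 for Kv pores, 2.57 for auxiliary, 0.720 for silent and 1.21 for tandem-pore genes, and share differences in percentage points of -6.92, -0.319, 0.704, 10.7, -2.79 and -2.01. Summing CPM without length gave a tandem-pore ratio of 1.08 and share differences of -3.22 for KCNQ, 5.02 for Kv pores, 3.01 for auxiliary and -1.52 for tandem-pore genes. Lengths from all GENCODE exons, an alternative chosen after seeing the data, gave a KCNQ ratio of 1.02 and share differences of -3.98 for Kcnh, -1.43 for KCNQ, 4.08 for Kv pores, 3.58 for auxiliary and -2.22 for silent genes. The cause of these moves was not tested. Counting error limits the genes under 1 CPM.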
